A study of Mus musculus with 2 samples.

Results

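The genes described here are the core of the mouse cell cycle engine: cyclins, cyclin-dependent kinases (Cdks), their inhibitors, the retinoblastoma and E2F families, and the regulators that switch these on and off. They were the 50 genes of a named set, found on the array by gene symbol, of 19512 genes measured in all. The injured sample was corneal epithelium of C57BL/6 mice of both sexes at 8 weeks of age, collected about 48 hours after the epithelium of that eye had been removed to its full depth up to the limbus, when 10% of the wound was still open. The uninjured sample was epithelium of the fellow eyes, so both samples come from animals that had been anaesthetised with ketamine and xylazine and wounded in 1 eye, and no eye of an unwounded mouse is analysed here. There was 1 array of each, and the number of mice behind an array, or whether animals were pooled, is not stated in the sources used here. With 1 array per group there is no spread between samples and no test, so every difference below describes these 2 arrays without a replicate check.

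A cell commits to division when D-type cyclins with Cdk4 or Cdk6 phosphorylate the retinoblastoma proteins and so free E2F transcription factors, which switch on the E-type and A-type cyclins and the enzymes of DNA replication. Cyclin B with Cdk1 then drives mitosis, after Cdc25 phosphatases remove the inhibitory phosphates that Wee1 put on the kinase. The Cip/Kip and Ink4 inhibitor families hold the kinases back, and the ubiquitin ligase subunit Skp2 with its cofactor Cks1b marks the inhibitor p27 (Cdkn1b) for destruction. In the cornea, cells divide in the basal layer and at the limbus, and division rises as a wound is resurfaced.

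Of the 50 genes, 45 had a row of their own and passed the low-signal filter, which asks that the brighter of the values reach 5.44 on the log2 scale, the median of the table. All 45 lay above that level in both arrays. Ccnd1, Ccnf, Cdk9 and Foxm1 occur only on rows that the platform assigns to several genes and were not counted, and Ccnb1 is not analysed here. A gene was called higher or lower in injured epithelium at a log2 difference of 1, which is 2-fold. By that rule 12 of the 45 genes were higher, against 4.14% of all 19512 measured genes, and 1 of 45 was lower, against 3.92% of all measured genes. The median log2 difference, injured minus uninjured, was 0.46 over the 45 genes and 0.06 over all measured genes. The difference was above 0 for 35 genes and below 0 for 10, where over all 19512 measured genes it was above 0 for 11392 and below 0 for 7964. At 1.5-fold, 21 of the 45 were higher and 3 lower, where 11.1% of all measured genes were higher and 8.77% lower, and none of the 45 was 4-fold apart. In a bulk sample, more dividing cells and more transcript in each dividing cell cannot be told apart. Rows of the same gene disagreed with an SD of 0.24 in the log2 difference, taken over 542 rows of 256 genes. This is the one measure of spread these arrays give, and 10 of the 45 genes differed by less than this SD. All rows come from the same 2 arrays, so it holds no variation between animals or between arrays of a group. A difference larger than this SD is therefore not shown to exceed that variation.

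**Figure D1:**
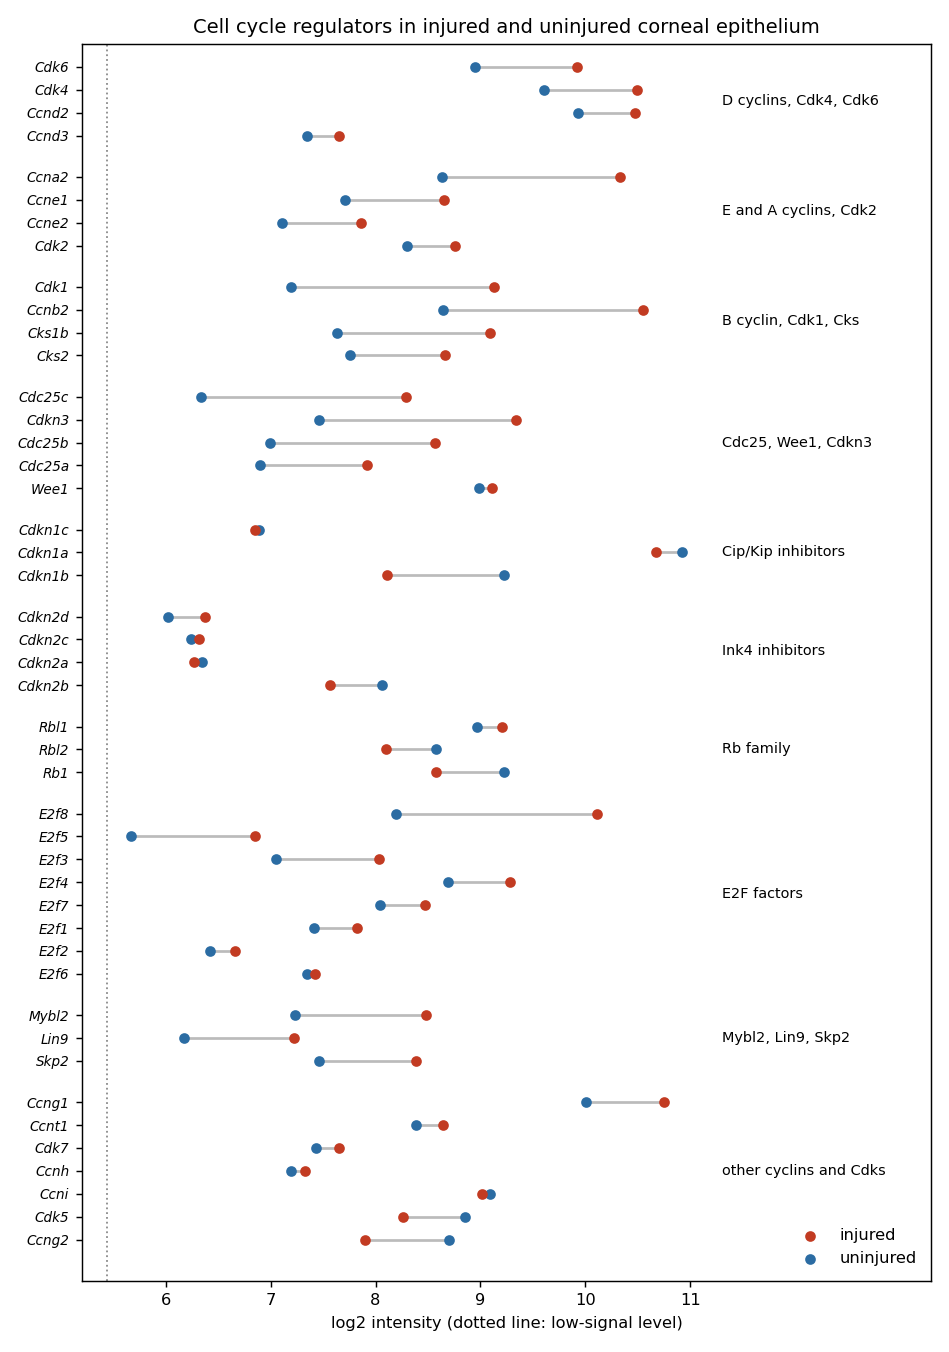
Log2 intensity (horizontal axis) of the 45 measured genes, 1 line per gene grouped by role, with the injured array in red and the uninjured array in blue. The red point lies to the right for every gene of the cyclin D, cyclin E and A, cyclin B, Cdc25 and E2F groups, and to the left for the 3 Cip/Kip inhibitors. Positions of different genes are not comparable, because each row has its own probes.

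The largest differences included those of genes that carry a cell into mitosis, along with that of E2f8, described with the E2F genes. Of the 4 measured genes of the cyclin B and Cdk1 group, 3 were at least 2-fold higher in injured epithelium, and the group's median log2 difference was 1.68. Cdk1, the kinase that starts mitosis, had a log2 value of 9.13 in injured and 7.20 in uninjured epithelium, a difference of 1.94 (3.82-fold). Ccnb2, a B-type cyclin that activates Cdk1, had 10.55 in injured and 8.64 in uninjured epithelium, a difference of 1.91 (3.75-fold). Among all 19512 measured genes, 161 had a larger difference than Cdk1 and 169 a larger one than Ccnb2. Both Cks genes encode small subunits that bind Cdks and help them find phosphorylated substrates. Cks1b had 9.09 in injured and 7.63 in uninjured epithelium (1.46 higher, 2.75-fold). The mouse genome also holds a copy named Cks1brt, and how much of the Cks1b signal it gives is uncertain. Cks2 had 8.66 in injured and 7.76 in uninjured epithelium, a difference of 0.90, just under the threshold.

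In the group of the Cdc25 phosphatases, Wee1 and Cdkn3, 4 of 5 genes passed 2-fold upward, and the group's median difference was 1.57. Other genes that act on Cdk1 by phosphorylation, namely Cdk7, Ccnh and Pkmyt1, were under 2-fold apart and are described below. Cdc25c, a phosphatase that activates Cdk1 at mitotic entry, had a log2 value of 8.29 in injured and 6.33 in uninjured epithelium. Its difference of 1.96 (3.89-fold) was the largest of all 45 genes. Cdc25b had 8.56 in injured and 6.996 in uninjured epithelium, a difference of 1.57 (2.97-fold). Cdc25a, which acts earlier as well, at the start of DNA replication, had 7.92 in injured and 6.90 in uninjured epithelium and lay at the threshold with a difference of 1.02. Cdkn3, a phosphatase that removes the activating phosphate of Cdks, had 9.34 in injured and 7.46 in uninjured epithelium (1.88 higher, 3.67-fold). Wee1, the kinase that the Cdc25 enzymes oppose, had 9.11 in injured and 8.99 in uninjured epithelium, a difference of 0.13, less than the SD between rows of a gene.

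Promoters are shown because the genes of this mitotic group moved together and because such promoters are known to share an element, the cell cycle genes homology region (CHR). The CHR is bound by the MuvB complex, of which Lin9 is a subunit, and that complex works with p130 (Rbl2) and E2f4 as a repressor and with Mybl2 and Foxm1 as an activator. CCAAT boxes, bound by NF-Y, usually lie upstream of it. RefSeq windows of GRCm38.p6, each running from 250 bases before to 50 after an annotated gene start, were found for 8 of the 12 higher genes and for 25 of the other 33 measured genes. The windows were searched on both strands for the CHR letters TTTGAA and TTCGAA, for CCAAT, and for the E2F letters TTTGGCGC, TTTCCCGC, TTTCGCGC and TTTGCCGC. Printed below 5′ to 3′ is the stretch from 150 bases before to 15 after the start, for 7 higher genes and for Cdkn1b, the 1 gene that was lower, with the matched letters of either strand in capitals (on the other strand the CHR reads TTCAAA and the CCAAT box ATTGG). The stretches are Cdk1 at chr10:69352898-69353062 (minus strand), Ccnb2 at chr9:70421540-70421704 (minus strand), Cks1b at chr3:89418277-89418441 (minus strand), E2f8 at chr7:48881582-48881746 (minus strand), Cdc25b at chr2:131186798-131186962 (plus strand), Cdkn3 at chr14:46760391-46760555 (plus strand), Cdc25a at chr9:109875429-109875593 (plus strand) and Cdkn1b at chr6:134920251-134920415 (plus strand).
Cdk1: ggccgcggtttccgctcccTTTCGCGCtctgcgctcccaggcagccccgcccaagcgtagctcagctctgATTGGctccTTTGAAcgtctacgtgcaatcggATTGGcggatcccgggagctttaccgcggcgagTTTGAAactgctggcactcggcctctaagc
Ccnb2: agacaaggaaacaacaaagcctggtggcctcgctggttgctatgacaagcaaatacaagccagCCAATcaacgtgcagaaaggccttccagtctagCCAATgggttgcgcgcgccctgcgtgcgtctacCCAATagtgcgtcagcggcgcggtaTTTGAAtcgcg
Cks1b: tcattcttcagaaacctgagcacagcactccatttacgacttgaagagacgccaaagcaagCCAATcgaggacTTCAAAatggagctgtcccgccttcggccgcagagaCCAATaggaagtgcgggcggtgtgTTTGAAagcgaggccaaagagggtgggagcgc
E2f8: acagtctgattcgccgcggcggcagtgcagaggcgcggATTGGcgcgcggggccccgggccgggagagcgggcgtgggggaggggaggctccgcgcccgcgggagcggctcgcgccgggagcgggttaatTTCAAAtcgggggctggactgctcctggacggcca
Cdc25b: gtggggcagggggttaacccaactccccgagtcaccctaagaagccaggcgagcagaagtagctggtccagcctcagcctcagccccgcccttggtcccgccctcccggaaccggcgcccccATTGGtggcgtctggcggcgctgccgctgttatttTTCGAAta
Cdkn3: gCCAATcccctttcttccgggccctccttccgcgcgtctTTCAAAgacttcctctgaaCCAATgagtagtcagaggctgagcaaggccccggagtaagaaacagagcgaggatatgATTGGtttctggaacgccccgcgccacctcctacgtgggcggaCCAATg
Cdc25a: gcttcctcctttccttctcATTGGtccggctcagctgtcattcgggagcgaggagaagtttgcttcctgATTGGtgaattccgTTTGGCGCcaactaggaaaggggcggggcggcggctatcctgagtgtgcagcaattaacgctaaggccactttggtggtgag
Cdkn1b: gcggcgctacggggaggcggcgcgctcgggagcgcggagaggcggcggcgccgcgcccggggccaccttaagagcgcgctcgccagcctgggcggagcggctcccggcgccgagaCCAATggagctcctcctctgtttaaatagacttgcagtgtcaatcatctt

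In Cdk1 and Cks1b the CHR letters nearest the start began 15 and 17 bases before it, and in E2f8 they began 20 bases before it. In Ccnb2 and Cdc25b they began at bases 5 and 8 of the transcribed sequence. Upstream of them Ccnb2 held 3 CCAAT boxes, at 87, 54 and 21 bases before the start, and Cdk1 held CCAAT letters at 208, 80 and 48 bases before it. Cdkn3 had its CHR letters further away, at 111 bases before the start, between CCAAT boxes. Cdc25a held no CHR letters in its window but an E2F match at 67 bases before the start, and Cdk1 held another E2F match at 131 bases before it. Cdkn1b held CCAAT letters and neither CHR nor E2F letters. Mybl2, also higher, held none of these exact letters in its window. Its stretch, which is not printed, reads cacttggcgggagat near the start, close to the E2F letters searched but not identical to them. The lack of a match therefore does not show that Mybl2 lacks an E2F element.

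Counted per gene, CHR letters occurred in the windows of 6 of the 8 higher genes (75%), of 6 of the 25 other measured genes (24%), and of 16.2% of all 12206 measured genes with a window. CHR letters beginning within 25 bases of the start, a limit chosen after the positions had been seen, occurred in 5 of the 8 higher genes, in 1 of the other 25, which is E2f3, and in 2.38% of all measured genes with a window. CCAAT letters occurred in 7 of 8 higher genes and 12 of the other 25, against 41.7% of all measured genes with a window. The E2F letters were found in 2 of 8 higher genes and 6 of the other 25, namely Cdk2, Cdkn2a, E2f2, E2f3, E2f7 and Rbl1, against 4.06% of all. Higher genes in general also held these letters more often than all measured genes. Of the 539 measured genes at least 2-fold higher with a window, 27.6% held CHR letters and 10.0% held them within 25 bases of the start. CCAAT letters were in 46.4% of these 539 and the E2F letters in 8.16%. Genes with several annotated starts counted once if any window held the letters. A match is a description of the letters in the window and not a site shown to be bound. Variants of these letters were not counted, so the E2F shares hold for the exact letters only.

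**Figure D2:**
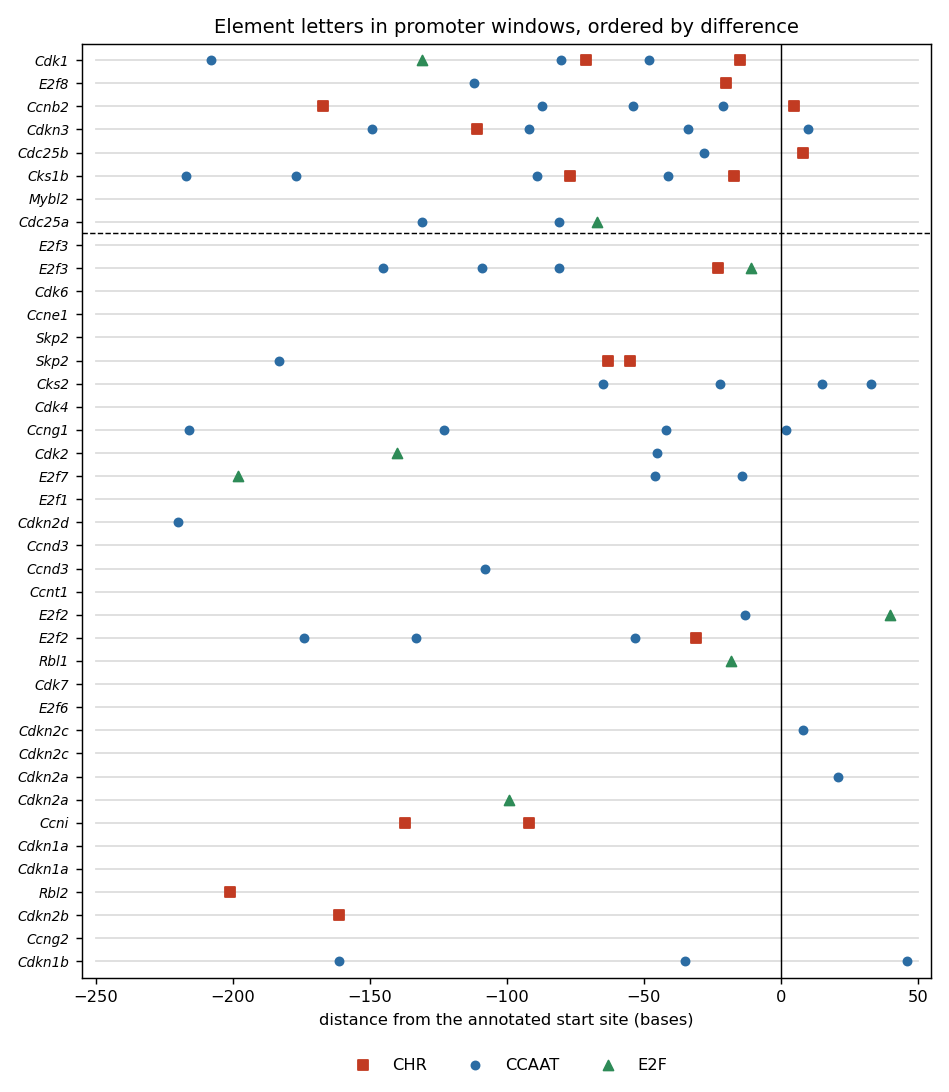
Positions of CHR (red squares), CCAAT (blue circles) and E2F letters (green triangles) in each promoter window, in bases from the annotated start (vertical line), 1 line per window, ordered from the highest log2 difference at the top to the lowest. The 8 genes above the dashed line were at least 2-fold higher in injured epithelium, and 5 of them hold CHR letters within 25 bases of the start.

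**Figure D3:**
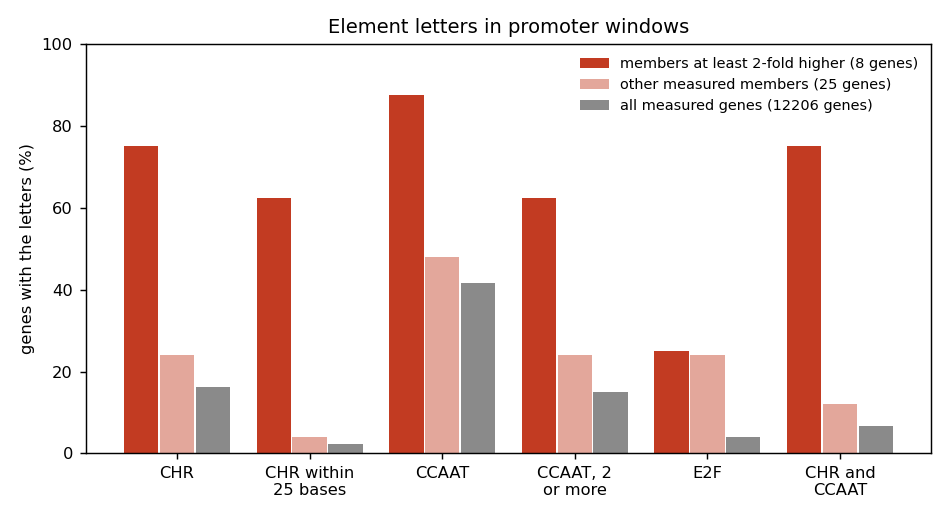
Percentage of genes whose promoter window holds each element, for genes of the set at least 2-fold higher (red), the other measured genes of the set (pink) and all measured genes with a window (grey). CHR letters are present in 75% of the 8 higher genes and 24% of the other 25, whereas the E2F letters are present in 25% and 24%.

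Of the cyclins and kinase of DNA replication, the A-type cyclin stood apart from the E-type cyclins. Ccna2, whose protein works with Cdk2 in DNA replication and with Cdk1 before mitosis, had a log2 value of 10.34 in injured and 8.63 in uninjured epithelium, a difference of 1.70 (3.25-fold). Ccne1 had 8.65 in injured and 7.71 in uninjured epithelium (0.93 higher), and Ccne2 had 7.86 in injured and 7.10 in uninjured epithelium (0.76 higher). Both E-type cyclins, which activate Cdk2 at the start of DNA replication, were thus under 2-fold apart. Their kinase partner Cdk2 had 8.76 in injured and 8.30 in uninjured epithelium, a difference of 0.46, which is also the median of the whole set.

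The 4 measured genes that act at the start of the cycle were all higher by less than 2-fold. Only 4.14% of all measured genes were at least 2-fold higher, so 0 of 4 past 2-fold says little. Cdk6 had a log2 value of 9.92 in injured and 8.95 in uninjured epithelium, and its difference of 0.97 (1.96-fold) fell just short of the threshold. Cdk4, the other kinase partner of the D-type cyclins, had 10.49 in injured and 9.61 in uninjured epithelium (0.89 higher). Ccnd2 had 10.48 in injured and 9.93 in uninjured epithelium (0.55 higher), and Ccnd3 had 7.65 in injured and 7.35 in uninjured epithelium (0.30 higher). The median difference of these 4 genes was 0.72. The row that carries the third D-type cyclin gene, Ccnd1, together with the microRNA gene Mir3962 had 9.71 in injured and 9.84 in uninjured epithelium. Several differences lay close to the threshold: 6 genes of the set lay between 0.85 and 1, namely E2f3, Cdk6, Ccne1, Skp2, Cks2 and Cdk4, while Cdc25a and Lin9 lay just above 1. The share of all measured genes in that range was not counted.

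None of the 7 inhibitor genes of the Cip/Kip and Ink4 families was higher by 2-fold. Over all measured genes 4.14% were, so this count in so small a group says little. Cdkn3 is not among the 7 and was described with the Cdc25 genes. Cdkn1b, which encodes p27, an inhibitor that holds cells in quiescence, had a log2 value of 8.11 in injured and 9.22 in uninjured epithelium. It was the 1 gene of the set at least 2-fold lower, with a difference of -1.11 (2.16-fold), and 622 of all measured genes had a lower difference. Cdkn1a, which encodes the p53-induced inhibitor p21, had 10.67 in injured and 10.92 in uninjured epithelium, a difference of -0.25. Cdkn1c, which encodes p57, had 6.85 in injured and 6.89 in uninjured epithelium, a difference of -0.03, less than the SD between rows of a gene.

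The Ink4 genes, whose proteins bind Cdk4 and Cdk6 in place of cyclin D, were less than 2-fold apart, with a median difference of 0.00. Cdkn2b (p15) had a log2 value of 7.56 in injured and 8.06 in uninjured epithelium, a difference of -0.49. Cdkn2d (p19) had 6.37 in injured and 6.02 in uninjured epithelium (0.36 higher). Cdkn2a, whose locus makes p16 and Arf from alternative first exons that 1 row cannot separate, had 6.27 in injured and 6.34 in uninjured epithelium, and Cdkn2c (p18) had 6.32 in injured and 6.25 in uninjured epithelium. The last 2 differed by less than the SD between rows of a gene.

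Of the retinoblastoma family, which binds E2F factors and keeps their targets silent, Rb1 and Rbl2 were lower by less than 2-fold. Rbl1 differed by less than the SD between rows of a gene. Rb1 had a log2 value of 8.58 in injured and 9.22 in uninjured epithelium, a difference of -0.64. A further Rb1 row gave 7.58 in injured and 8.13 in uninjured epithelium, a difference of -0.54, and a last row lay below the low-signal level in both arrays with 3.62 in injured and 4.65 in uninjured epithelium. The 2 Rb1 rows that passed the filter were therefore lower in injured epithelium, and the dim row is not counted as support. Rbl2 (p130), the family member typical of resting cells, had 8.10 in injured and 8.58 in uninjured epithelium (-0.48). Rbl1 (p107), itself an E2F target, had 9.20 in injured and 8.97 in uninjured epithelium, a difference of 0.23.

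All 8 E2F genes had a difference above 0, with a median of 0.51, and 2 of them were at least 2-fold higher. Over all 19512 measured genes, 11392 were above 0 and 4.14% were at least 2-fold higher. E2f2 and E2f6 differed by less than the SD between rows of a gene. E2f8, an atypical repressor that is made during DNA replication, had a log2 value of 10.11 in injured and 8.20 in uninjured epithelium, a difference of 1.91 (3.76-fold). Its closest relative E2f7 had 8.48 in injured and 8.04 in uninjured epithelium, 0.44 higher. The 2 atypical E2F genes thus differed from each other in the size of their difference by more than the SD between rows of a gene. E2f5, a repressor that works with p130, had 6.85 in injured and 5.67 in uninjured epithelium (1.18 higher), and its uninjured value is close to the low-signal level, so the size of its difference is uncertain.

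Of the activating E2F genes, E2f3 had the largest difference, with a log2 value of 8.04 in injured and 7.05 in uninjured epithelium (0.99 higher, 1.98-fold). The row with these values is listed without a chromosome, and the other E2f3 row gave 7.74 in injured and 6.87 in uninjured epithelium, 0.87 higher. E2f1 had 7.82 in injured and 7.41 in uninjured epithelium (0.41 higher), and E2f2 had 6.66 in injured and 6.43 in uninjured epithelium (0.24 higher). Of the repressors, E2f4 had 9.28 in injured and 8.69 in uninjured epithelium (0.59 higher). E2f6, which works through Polycomb proteins, differed by 0.08.

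Mybl2, Lin9 and Skp2 were higher by about 2-fold. Mybl2 (B-Myb), which turns the MuvB complex into an activator, had a log2 value of 8.48 in injured and 7.23 in uninjured epithelium, a difference of 1.26 (2.39-fold). Lin9, a subunit of MuvB as repressor and as activator, had 7.22 in injured and 6.18 in uninjured epithelium (1.05 higher). The other measured MuvB subunits Lin37, Rbbp4 and Lin54 differed by 0.01, 0.06 and 0.30. Skp2, the substrate receptor of the ubiquitin ligase that destroys p27, had 8.38 in injured and 7.46 in uninjured epithelium, a difference of 0.93. Skp2 and its cofactor Cks1b were both higher in the array in which the Cdkn1b transcript was lower. The ligase acts on p27 protein, which was not measured, and a link to the transcript was not tested.

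The cyclins and kinases with roles in transcription, in Cdk activation or outside the cycle had 0 of 7 genes past 2-fold and a median difference of 0.13. Ccng2, a cyclin linked to growth arrest, had a log2 value of 7.90 in injured and 8.70 in uninjured epithelium, a difference of -0.80. Ccng1, a p53 target, went the other way with 10.75 in injured and 10.01 in uninjured epithelium (0.74 higher). Cdk5, an atypical kinase best known from neurons, had 8.27 in injured and 8.85 in uninjured epithelium (-0.58). Cdk7 and Ccnh, which form the kinase that activates other Cdks, differed by 0.22 and 0.13, and Ccnt1, the cyclin of the elongation kinase, by 0.26. Ccni had 9.01 in injured and 9.09 in uninjured epithelium. Ccnh, Cdk7 and Ccni differed by less than the SD between rows of a gene.

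**Figure D4:**
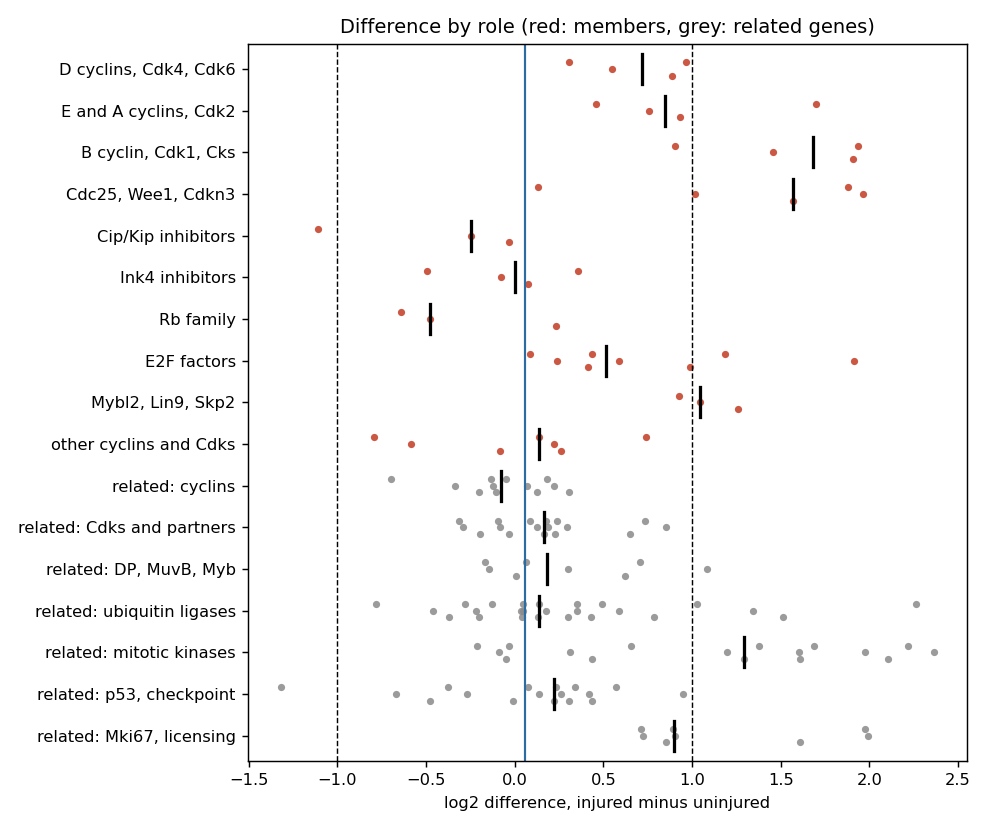
Log2 difference, injured minus uninjured (horizontal axis), of each measured gene by role, with the set in red, related cell cycle genes in grey, a black bar at each group's median, dashed lines at 2-fold and the blue line at the median of all measured genes. The cyclin B with Cdk1 and the Cdc25 groups have medians of 1.68 and 1.57, the Cip/Kip inhibitors and the Rb family have medians of -0.25 and -0.48, and the related mitotic kinases have a median of 1.29.

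Related genes outside the set were read from 7 lists holding 115 genes, of which 104 were measured: 18 passed 2-fold upward and 1 downward, and their median difference was 0.22. Over all measured genes 4.14% were at least 2-fold higher, 3.92% were lower, and the median was 0.06. Beside these shares, 0 past 2-fold in a list of 12 or 17 genes says little. Other cyclins had 0 of 12 past 2-fold (median -0.08), the widest difference being that of Ccnjl at -0.70. Other Cdks and their partners had 0 of 17 (median 0.17), the highest being Cdk18 at 0.85. Cdk8 and Ccnc, a kinase and cyclin of transcription, had differences of -0.03 and -0.13. The 18 higher genes thus came from 4 of the other 5 lists.

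The other kinases and phosphatases of mitotic entry and exit had 10 of 17 genes past 2-fold upward, against 4.14% of all measured genes, and 0 downward. The median of this list was 1.29. Bub1, a kinase of the spindle checkpoint, had a log2 value of 8.74 in injured and 6.38 in uninjured epithelium (2.36 higher). Plk1, which activates Cdc25c and destabilises Wee1, had 10.65 in injured and 8.43 in uninjured epithelium (2.22 higher). Ttk was higher by 2.11, Aurka by 1.98, its cofactor Bora by 1.69 and Aurkb by 1.61. Mastl, Plk3, Plk4 and Nek2, named to complete the count after their values were seen, were the other 4. Pkmyt1, which like Wee1 places inhibitory phosphates on Cdk1, differed by 0.44.

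Among ubiquitin ligase genes 4 of 25 passed 2-fold upward, against 4.14% of all measured genes, and 0 downward (median 0.13). Cdc20, which activates the anaphase-promoting complex in mitosis, had a log2 value of 9.53 in injured and 7.26 in uninjured epithelium (2.26 higher), while Fzr1, its counterpart after mitosis, differed by 0.03. The ubiquitin-conjugating enzymes of that complex were higher, Ube2c by 1.51 and Ube2s by 1.34, as was its inhibitor Fbxo5 by 1.03. Skp1 and Cul1, the core subunits that Skp2 works with, differed by -0.20 and -0.46.

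Tfdp1, a DP partner of typical E2F factors, was the 1 of 8 genes past 2-fold in the list of DP, MuvB and Myb genes, with 10.69 in injured and 9.60 in uninjured epithelium (1.09 higher). Over all measured genes 4.14% were at least 2-fold higher, so 1 of 8 says little. The MuvB subunits Lin37 and Lin54 differed by 0.01 and 0.30. In the list of p53 and checkpoint genes 0 of 17 were higher and 1 was lower, Sesn1, a stress-induced sestrin, with 8.27 in injured and 9.59 in uninjured epithelium (-1.32). These counts are near the shares over all measured genes, 4.14% higher and 3.92% lower, and say little. Chek1, the replication checkpoint kinase, was 0.95 higher, and Mdm2, a p53 target and its antagonist, 0.14 higher. Of the proliferation markers Top2a was higher by 1.99, Tpx2 by 1.98 and Mki67 by 1.61, and the replication clamp Pcna was 0.91 higher.

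Markers of the tissue and of other cell types were compared in the same arrays, and their part in the cell cycle differences was not tested. The corneal keratin Krt12 had a log2 value of 10.85 in injured and 14.07 in uninjured epithelium, and Pax6 had 9.31 in injured and 10.63 in uninjured epithelium, so both defining genes of this epithelium were bright in both. Of the 8 corneal epithelial markers 4 were at least 2-fold lower (Krt12, Aldh3a1, Krt15 and Pax6) and 1 higher, the basal keratin Krt14, and their summed linear intensity was 33182 in injured and 57882 in uninjured epithelium. Of 13 leukocyte markers 9 were measured, 1 at least 2-fold higher (S100a9) and 1 lower (Itgam), with a sum over the 12 that had a row of 1631 in injured and 2118 in uninjured epithelium. The lower sum in injured epithelium came from Itgam, with a log2 value of 8.72 in injured and 10.26 in uninjured epithelium. The other 8 measured leukocyte markers had differences above 0, and the median of the 9 was 0.20. Ptprc, the pan-leukocyte gene, lay below the low-signal level with 4.39 in injured and 4.29 in uninjured epithelium. Keratocyte markers had 5 of 7 measured and 1 of them lower (Dcn), with sums over all 7 of 475 in injured and 537 in uninjured epithelium, and their defining genes Kera and Lum were below the low-signal level in both. Conjunctival markers had 1 of 6 higher (Krt19) and 1 lower (Muc5ac), with sums of 11090 in injured and 9795 in uninjured epithelium, and endothelial markers had 0 of 3 past 2-fold, with sums over all 6 of 569 in injured and 475 in uninjured epithelium.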

How the data were processed

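The authors deposited 1 table with a column of log2 intensities for each of the 2 arrays and 65952 rows, each row a transcript cluster. Agilent Feature Extraction 9.1 was used, per the submitters' processing notes, although the biotin label and the row identifiers have the form of another platform. The sources used here do not give the background correction, the probe summary, the normalization or the genome build. The columns differed by 0.0135 in median and 0.00513 in 75th percentile, under the 0.1 allowed, and were kept as deposited. No detection or saturation call was used.

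Rows were named from the platform annotation, with symbols updated through RefSeq (GRCm38.p6): 31254 rows carried 1 gene, 1492 several and 33206 none named here. Rows with several genes were left unnamed. A row was kept when its brighter value reached the median of the table, and the row with the highest mean stood for its gene, which left 19512 genes. A gene was called at a log2 difference of 1 or more, injured minus uninjured, with no test. All 50 genes of the set were named, with up to 6 genes past 2-fold from each related list by size of difference, and Mki67, Pcna, Top2a, Krt12, Pax6 and Ptprc whatever their values. Other related genes and markers named (such as Ccnjl, Cdk18, Pkmyt1, Fzr1, Skp1, Chek1, S100a9 and Dcn) were chosen after their values were seen. The genes and lists were chosen with earlier results of these data known. Alternatives were 4 ways of normalizing (quantile, medians equal, 75th percentiles equal, loess of the difference with span 0.3), 3 changes of the filter on dim rows, 3 row choices, a constant of 13.9 (the 10th percentile of linear intensity) added before log2, and thresholds of 1.5-fold and 4-fold. Scripts ran in Python 3.11.15 with pandas 2.3.3, numpy 2.4.6 and statsmodels 0.14.6. The calling step was run on simulated data in which the changed genes were moved well past the threshold. That run checks the code only and does not test calls near 2-fold or variation between animals.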

Additional observations from a re-analysis of the deposited data

Results flagged for a closer look

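Rows that the platform assigns to several genes were outside the comparison, and 2 of the 4 such rows that carry a gene of the set were at least 2-fold higher in the injured array than in the uninjured one. The row of Ccnf, a cyclin F gene whose protein is a ubiquitin ligase subunit, and Mir5134 had a log2 value of 8.58 in injured and 6.95 in uninjured epithelium, a difference of 1.63 (3.10-fold). The row of Foxm1, the transcription factor of mitotic genes, and its neighbour Tex52 had 8.52 in injured and 7.05 in uninjured epithelium, a difference of 1.47 (2.78-fold). Which of the genes on a row gave its signal was not tested. The row of Cdk9 with Mir2861 and Mir3960 differed by 0.15, and that of Ccnd1 with Mir3962 by -0.13.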

How the results depend on the processing

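The count of 12 higher genes was the same under quantile normalization, equal medians, equal 75th percentiles, the loess, no low-signal filter, a filter on both values, and each choice of row, and the 12 genes were the same ones each time. Dropping the filter or asking it of both values could not change the count, because all 45 genes lay above that level in both arrays. The choice of row could alter only E2f3 and Rb1, because the other 43 genes had 1 row each. The count was 11 with the filter at the 75th percentile, where E2f5 was no longer measured, and 9 with the constant added before log2, where Cdc25a (0.94), E2f5 (1.00, just under the threshold) and Lin9 (0.92) were under 2-fold. With these, the E2F group held 1 higher gene in place of 2 under both settings, and the group of Mybl2, Lin9 and Skp2 held 1 in place of 2 with the constant. Cdkn1b was the 1 lower gene under all 11 of these settings. The set's median ranged from 0.44 to 0.59. Thresholds of 1.5-fold and 4-fold gave 21 and 0 higher and 3 and 0 lower genes of the set, and 32 and 4 higher and 4 and 0 lower related genes, by construction of the threshold. All 489 differences of single genes under these alternatives moved by less than the SD between rows of a gene, and 0 called differences changed sign. Many of the 489 could not move at all, namely those under the filter settings and, for genes with 1 row, those under the choices of row. No paired analysis was possible because each group has 1 array. Signal over background could not be judged, since no detection call was used, and it limits E2f5 most.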
